A study of Mus musculus with 6 samples.

Results

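The enzymes and carriers that bring pyruvate into the mitochondrion, turn the tricarboxylic acid (TCA) cycle, move malate, aspartate and glutamate, and export citrate were compared between control Treg cells (ctrl-Treg) and Treg cells differentiated with sorafenib (Sora-Treg). The 32 genes were taken by symbol from the gene tables: 10 of pyruvate entry, 12 of the TCA cycle, 5 of the malate-aspartate shuttle and glutamate, and 5 of citrate export and NADPH. All 32 were among the 22939 genes listed, and all 32 passed the filter on low counts that left 13463 genes for testing. Their level was measured by RNA-seq in 3 libraries of each group.

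Sorafenib (Sora) is a multikinase inhibitor used against liver cancer. The labels name the groups only as control and sorafenib treated Treg cells, and the study's methods give the rest. In both groups, naive CD4+ T cells were taken from C57BL/6J mice with a GFP reporter knocked into the Foxp3 locus and stimulated with plate-bound anti-CD3 and anti-CD28 in the presence of TGF-β1, anti-IFN-γ and anti-IL4. Sora-Treg cells received the drug from the start of culture, and GFP+ cells of both groups were sorted for RNA. The cells are therefore induced Treg cells, and all of them carry the reporter allele. The drug concentration of these libraries, the age of the reporter mice, and whether the libraries came from separate mice or cultures were not given in the sources used here, so p-values measure only the spread between these samples, which may be technical.

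Pyruvate made by glycolysis enters the mitochondrion through the pyruvate carrier and is then either oxidized to acetyl-CoA by pyruvate dehydrogenase or carboxylated to oxaloacetate by pyruvate carboxylase. The TCA cycle oxidizes the acetyl group and passes its electrons to the respiratory chain, while glutamate refills the cycle as alpha-ketoglutarate. Citrate that leaves the mitochondrion is the source of cytosolic acetyl-CoA for lipid synthesis and acetylation, and malic enzymes turn malate back into pyruvate. Treg cells are known for relying more on mitochondrial oxidation than conventional effector T cells do.

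Levels are given as CPM, the count of a gene per 1000000 counts of its library, with library totals scaled by TMM factors, and a gene is called higher or lower at an adjusted p under 0.05 in edgeR's quasi-likelihood test with Benjamini-Hochberg adjustment over all 13463 genes. A differentially expressed gene (DEG) also changed by more than 1 on the log2 scale. Errors of means are SDs over 3 libraries and errors of log2 fold changes are standard errors.

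The libraries held 30727686 to 37717324 counts, and 3 counts corresponded to 0.0795 to 0.0976 CPM. Over all tested genes, 3994 were higher and 4028 lower in Sora-Treg cells. Of 5 Treg markers, 4 were higher (Foxp3, Il2ra, Ctla4 and Tnfrsf18) and Ikzf2 did not pass the test. Foxp3 rose by only 0.07 ± 0.03 on the log2 scale with overlapping groups (edgeR adjusted p = 0.0405). With library totals alone Foxp3 was at -0.04 and not called. The marker sums in this paragraph are CPM by library totals, without TMM factors. The Treg markers summed to 3112 to 3145 CPM in ctrl-Treg and 5517 to 5642 in Sora-Treg libraries. Il2ra held the largest part, at 1934 ± 32.1 and 3795 ± 54.1 CPM with TMM scaling. The 2 T cell markers in the table, Cd3e and Cd4, were both higher. Cd4 rose by only 0.06 ± 0.03 on the log2 scale (edgeR adjusted p = 0.0416). With library totals alone Cd4 was at -0.05 and not called. Markers of other cells were low. The 7 myeloid markers summed to 97.6, 96.5 and 25.9 CPM in ctrl-Treg and 21.5, 41.2 and 19.98 in Sora-Treg libraries, and 5 of 7 were lower. The B cell markers summed to 1.59 to 2.48 and 0.241 to 0.351, with all 3 tested lower. The CD8 T cell markers summed to 13.7 to 15.7 and 12.1 to 13.3, with 1 of 2 lower, and the natural killer cell markers to 2.21 to 2.44 and 3.96 to 4.78, with the 1 tested (Eomes) higher. The erythroid markers reached at most 0.163 and none was tested. The part of these cells in the enzyme changes was not tested beyond leaving out the 2 ctrl-Treg libraries with the high myeloid sums. Without them 9 of the 32 genes were higher and 12 lower.

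Sora-Treg cells had more mRNA of pyruvate carboxylase, the malic enzymes, ATP citrate lyase and glutamate dehydrogenase, and less mRNA of most pyruvate dehydrogenase subunits and of 7 of 12 TCA cycle genes. Of the 32 genes, 9 were higher and 14 lower, and 9 did not pass the test. The called share of 71.9% stood beside 59.6% over all tested genes. The higher share was 28.1% (all genes 29.7%) and the lower share 43.8% (all genes 29.9%). The 3 DEGs, Pcx, Me2 and Me1, were all higher, which is 9.38% of the genes against 11.3% of all tested genes (6.3% higher DEGs and 4.97% lower DEGs). The groups did not overlap for 20 genes, or 62.5%, against 63.7% of all tested genes. The median log2 fold change of the 32 genes was -0.08, against -0.00352 over all tested genes.

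These shares depend on the scaling. With library totals alone and no TMM factors, the median of all genes moved by -0.12, and 5 of the 32 genes were higher and 18 lower, or 15.6% and 56.2%, against 21.3% and 41.7% of all tested genes. On that scale the 32 genes together summed to 3066 ± 6.04 CPM in ctrl-Treg and 3079 ± 47.6 in Sora-Treg libraries, with the groups overlapping. TMM scaling lowers the ctrl-Treg sum and raises the Sora-Treg sum, so the near equality does not hold on the TMM scale. By library totals the parts were divided differently. Citrate export and NADPH genes held 495 ± 5.64 CPM in ctrl-Treg and 722 ± 8.87 in Sora-Treg libraries, and TCA cycle genes 1271 ± 12.1 and 1083 ± 29.1. The first of these groups includes the mitochondrial malic enzyme Me2, which makes up a large part of its rise. With TMM scaling Me2 was at 120 ± 3.92 CPM in ctrl-Treg and 266 ± 2.46 in Sora-Treg libraries. The mitochondrial NADP-dependent enzyme Idh2 is counted with the TCA cycle. Because these are bulk libraries, fewer cells that express a gene and less of its RNA per cell cannot be told apart.

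**Figure D1:**
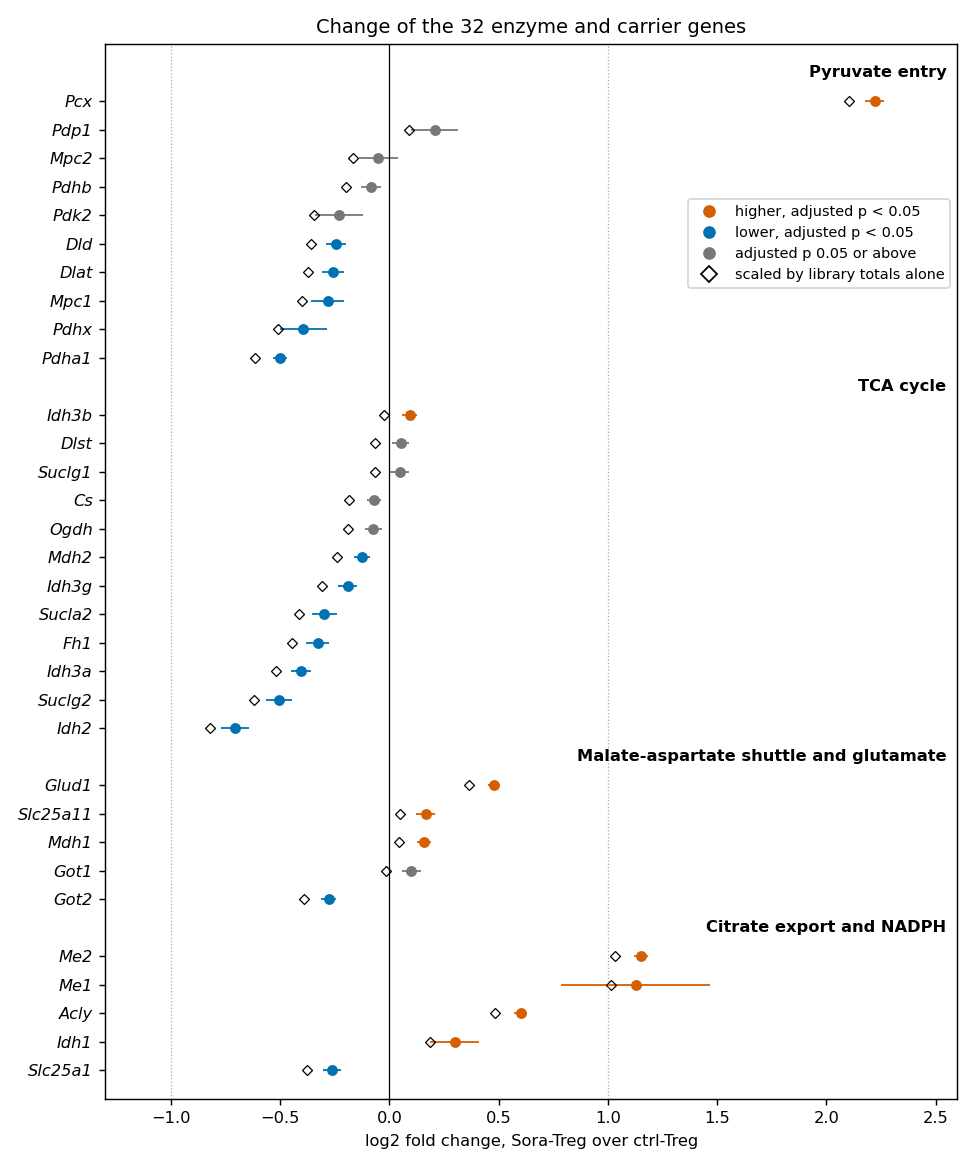
Log2 fold change of each of the 32 genes, Sora-Treg over ctrl-Treg, grouped by role, with bars of 1 standard error from 3 libraries per group. Filled points are the TMM-scaled values and open diamonds the values with library totals alone, which lie lower for every gene and turn from above to below 0 for Idh3b, Dlst, Suclg1 and Got1. Pcx stands at 2.22, and of the 14 lower genes 5 belong to pyruvate entry and 7 to the TCA cycle, the others being Got2 and Slc25a1.

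The promoter of Pcx, the gene with the largest change, is shown for both of its RefSeq starts, together with those of Acly and Slc25a1, which act one after the other in citrate export and were called in opposite directions. Each window is the 250 bases before a RefSeq start in the build GRCm38.p6. Capitals mark the E-box CACGTG, a letter pattern bound by MYC and other basic helix-loop-helix factors, and the core ACGTG of the hypoxia response element, which the E-box contains. Both were searched on both strands.
Pcx, first start, chr19:4510222-4510471, plus strand: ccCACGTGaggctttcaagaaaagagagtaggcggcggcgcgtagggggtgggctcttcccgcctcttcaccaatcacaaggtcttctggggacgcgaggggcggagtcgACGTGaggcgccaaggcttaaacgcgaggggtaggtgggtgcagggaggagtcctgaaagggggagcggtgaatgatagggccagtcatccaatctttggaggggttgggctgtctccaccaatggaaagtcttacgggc
Pcx, second start, chr19:4594069-4594318, plus strand: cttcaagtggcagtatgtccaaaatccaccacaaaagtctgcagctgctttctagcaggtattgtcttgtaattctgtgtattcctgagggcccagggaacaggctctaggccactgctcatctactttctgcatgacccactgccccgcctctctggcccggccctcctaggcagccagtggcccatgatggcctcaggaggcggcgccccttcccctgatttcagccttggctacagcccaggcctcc
Acly, chr11:100528001-100528250, minus strand: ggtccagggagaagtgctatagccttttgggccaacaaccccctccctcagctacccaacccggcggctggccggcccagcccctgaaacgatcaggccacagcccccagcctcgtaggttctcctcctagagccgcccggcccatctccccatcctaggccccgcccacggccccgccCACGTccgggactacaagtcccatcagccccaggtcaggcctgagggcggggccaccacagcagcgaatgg
Slc25a1, chr16:17928220-17928469, minus strand: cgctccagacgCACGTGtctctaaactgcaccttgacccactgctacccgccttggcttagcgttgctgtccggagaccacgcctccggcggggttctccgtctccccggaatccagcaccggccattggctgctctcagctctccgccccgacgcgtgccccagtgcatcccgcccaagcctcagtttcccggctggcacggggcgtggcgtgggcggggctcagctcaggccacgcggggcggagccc
The first Pcx window held an E-box whose first base lay 248 bases before the start and a further ACGTG 140 bases before it, and the second held neither. The gene counts do not tell which start was used. Acly held ACGTG on the opposite strand 71 bases before its start, and Slc25a1 an E-box 239 bases before. Windows were found for 29 of the 32 genes. The E-box was in 4 of them (Ogdh, Pcx, Pdk2 and Slc25a1), or 13.8%, against 6.86% of all 27025 genes with a window, and ACGTG in 9, or 31%, against 18.5%. The member windows had a median GC content of 61.6% and all windows 52.4%. Of the 4 genes with an E-box, 1 was higher, 1 was lower and the other two did not pass the test. A match describes these letters only.

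Among the transcripts of pyruvate entry, most pyruvate dehydrogenase subunits were lower and pyruvate carboxylase was higher. Pcx encodes pyruvate carboxylase, which makes oxaloacetate from pyruvate in the mitochondrion. The ctrl-Treg libraries measured 24.8, 27.0 and 26.1 CPM of Pcx, and the Sora-Treg libraries 120.4, 119 and 123 CPM. Every Sora-Treg library was above every ctrl-Treg library, and Pcx rose 4.66-fold (log2 fold change 2.22 ± 0.04, edgeR adjusted p = 3.00e-21). Per gene length it moved from the 27th to the 17th level among the 32 genes, from 6.28 to 27.0 FPKM.

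The pyruvate dehydrogenase complex went the other way, with 4 of its 5 subunit genes lower, or 80% beside 29.9% of all tested genes. Pdha1, the catalytic E1 alpha subunit that is also the target of inhibitory phosphorylation, measured 253, 267 and 265 CPM in ctrl-Treg and 182, 187 and 185 CPM in Sora-Treg libraries. The groups did not overlap, and Pdha1 fell by 0.50 ± 0.03 on the log2 scale (edgeR adjusted p = 2.06e-12). Some of its exon bases, 603 in GENCODE M21, are shared with Map3k15 on the opposite strand, which had 157 to 224 counts against at least 5535 for Pdha1. Dlat, the E2 acetyltransferase, went from 53.0 ± 1.55 to 44.3 ± 2.64 CPM (log2 fold change -0.26 ± 0.05, edgeR adjusted p = 1.15e-04). Dld, the E3 dehydrogenase that the oxoglutarate complex uses too, went from 73.1 ± 2.66 to 61.7 ± 3.70 CPM (log2 fold change -0.24 ± 0.05, edgeR adjusted p = 9.11e-05). Neither gene's groups overlapped.

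Pdhx, which anchors E3 in the complex, was at 14.1, 13.8 and 11.7 CPM in ctrl-Treg and 9.23, 12.1 and 8.99 CPM in Sora-Treg libraries. Its groups overlapped, although it was called lower (log2 fold change -0.39 ± 0.11, edgeR adjusted p = 0.00358), and with ctrl-Treg libraries 1 and 2 left out it was not called (-0.22, edgeR adjusted p = 0.308). Pdhb, the E1 beta subunit and partner of Pdha1, did not pass the test at 76.7 ± 1.64 and 72.4 ± 4.62 CPM (log2 fold change -0.08 ± 0.04, edgeR adjusted p = 0.114). The 5 genes together took 497 ± 8.63 CPM by library totals in ctrl-Treg and 359 ± 3.37 in Sora-Treg libraries. With library totals alone all 5 were called lower, beside 41.7% of all tested genes.

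Of the remaining pyruvate entry genes, Mpc1 was called lower and Pdk2, Pdp1 and Mpc2 did not pass the test. Pdk2, a kinase that inactivates pyruvate dehydrogenase, measured 10.1, 8.02 and 8.96 CPM in ctrl-Treg against 8.11, 7.40 and 7.56 CPM (log2 fold change -0.23 ± 0.11, edgeR adjusted p = 0.0751). Pdp1, the phosphatase that reactivates it, measured 8.05, 8.63 and 8.89 CPM in ctrl-Treg against 11.04, 8.60 and 9.86 CPM (log2 fold change 0.21 ± 0.11, edgeR adjusted p = 0.104). Both pairs of groups overlapped, and Pdk2 was called lower with library totals alone (-0.35, edgeR adjusted p = 0.00892). Mpc1, a subunit of the mitochondrial pyruvate carrier, was at 22.0, 23.1 and 21.1 CPM in ctrl-Treg and 19.0, 16.3 and 19.0 CPM in Sora-Treg libraries. It fell by 0.28 ± 0.08 on the log2 scale (edgeR adjusted p = 0.00282) without overlap, but not past the test with ctrl-Treg libraries 1 and 2 left out (-0.22, edgeR adjusted p = 0.128). Mpc1 shares 480 exon bases with 4930506C21Rik, which had 4 to 16 counts. Its partner Mpc2 was at 12.6 ± 0.514 and 12.2 ± 1.06 CPM and did not pass (log2 fold change -0.05 ± 0.09, edgeR adjusted p = 0.648).

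**Figure D2:**
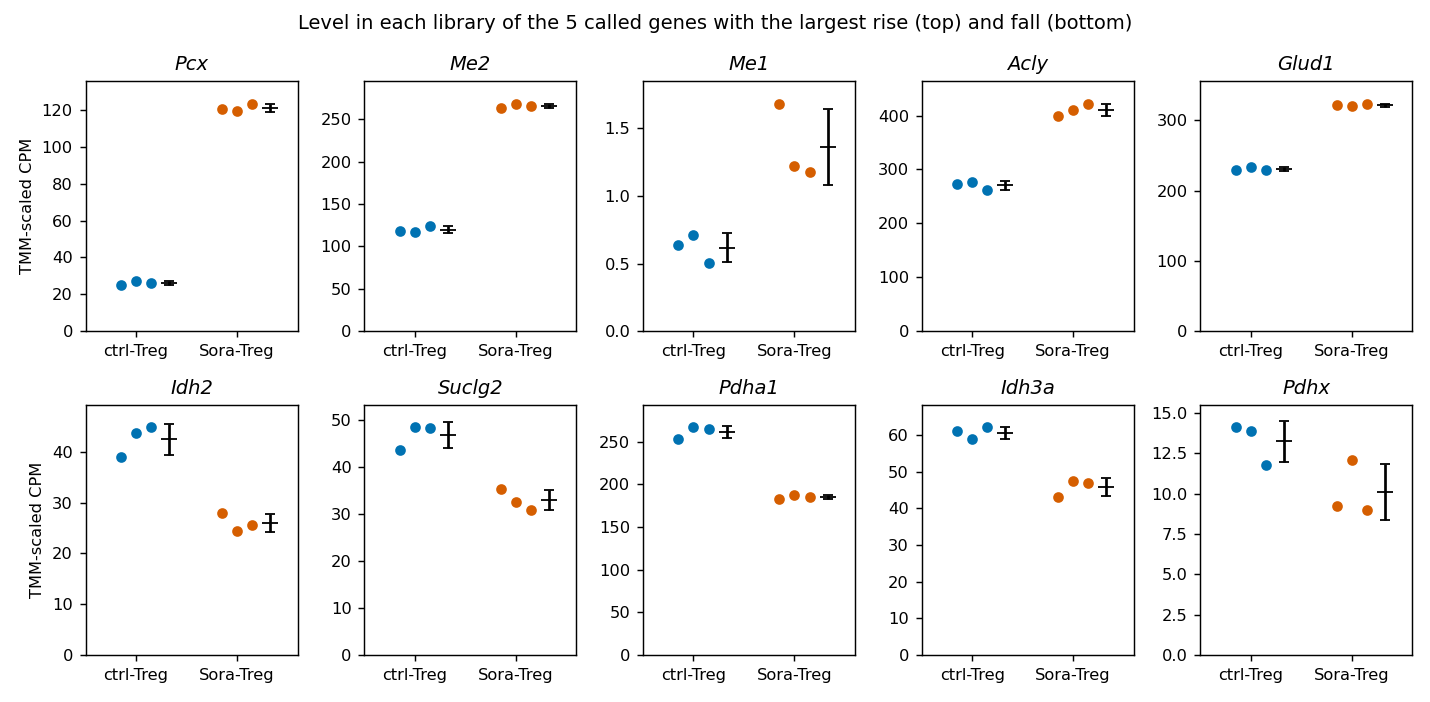
TMM-scaled CPM in each of the 6 libraries for the 5 called genes with the largest rise (top row) and the largest fall (bottom row), with every axis starting at 0 and mean and SD bars beside the points. Groups are apart for every gene but Pdhx, where the Sora-Treg library at 12.1 lies above the ctrl-Treg library at 11.7.

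In the TCA cycle 7 of 12 genes were lower, 1 was higher and 4 did not pass the test, with a median log2 fold change of -0.16. The lower share was 58.3% beside 29.9% of all tested genes, and the higher share 8.33% beside 29.7%. With library totals alone 9 were lower, or 75% beside 41.7% of all tested genes. Idh2, the mitochondrial NADP-dependent isocitrate dehydrogenase, had the largest fall. It measured 38.9, 43.6 and 44.8 CPM in ctrl-Treg and 27.9, 24.5 and 25.6 CPM in Sora-Treg libraries, without overlap (log2 fold change -0.71 ± 0.06, edgeR adjusted p = 1.80e-09). Suclg2, the GDP-forming beta subunit of succinyl-CoA ligase, measured 43.6, 48.5 and 48.3 CPM in ctrl-Treg and 35.4, 32.7 and 31.0 CPM in Sora-Treg libraries. It was lower in every Sora-Treg library (log2 fold change -0.50 ± 0.06, edgeR adjusted p = 9.84e-08). Sucla2, the ADP-forming beta subunit, was lower too, at 47.4, 41.1 and 46.2 CPM in ctrl-Treg against 34.4, 38.1 and 37.1 CPM (log2 fold change -0.30 ± 0.06, edgeR adjusted p = 1.32e-04). Suclg1, the alpha subunit that both forms share, did not pass (log2 fold change 0.05 ± 0.04, edgeR adjusted p = 0.362) and its value was -0.07 with library totals alone.

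The NAD-dependent isocitrate dehydrogenase is built from Idh3a, Idh3b and Idh3g, and its subunits did not move together. Idh3a, the catalytic subunit, measured 61.1, 58.9 and 62.1 CPM in ctrl-Treg and 43.0, 47.5 and 46.9 CPM in Sora-Treg libraries. The groups did not overlap (log2 fold change -0.40 ± 0.05, edgeR adjusted p = 1.34e-07). Idh3g was lower by less, at 76.6 ± 2.90 and 67.1 ± 2.63 CPM (log2 fold change -0.19 ± 0.04, edgeR adjusted p = 5.40e-04). Idh3b was called higher with overlapping groups, at 138 ± 4.52 and 147 ± 4.24 CPM (log2 fold change 0.09 ± 0.04, edgeR adjusted p = 0.0277), and turned to -0.02 with library totals alone. The call was lost without ctrl-Treg library 2 or 3 or Sora-Treg library 1 or 3 (edgeR adjusted p = 0.0515 to 0.149). Idh3b shares 5 exon bases with Nop56 on the opposite strand, which had 6956 to 11892 counts.

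Among the remaining cycle enzymes, Fh1, which encodes fumarase, went from 40.4 ± 1.19 to 32.2 ± 1.22 CPM (log2 fold change -0.33 ± 0.05, edgeR adjusted p = 1.30e-05). Mdh2, the mitochondrial malate dehydrogenase and the most abundant of the 32 transcripts per length in both groups, was at 184, 197 and 195 CPM in ctrl-Treg against 181, 167 and 179.8 CPM (log2 fold change -0.13 ± 0.04, edgeR adjusted p = 0.00434). Neither gene's groups overlapped. Cs, the citrate synthase that opens the cycle, measured 289.7 ± 5.28 and 276 ± 11.5 CPM and did not pass (log2 fold change -0.07 ± 0.03, edgeR adjusted p = 0.0529). Ogdh and Dlst, the E1 and E2 subunits of oxoglutarate dehydrogenase, had log2 fold changes of -0.07 ± 0.04 (edgeR adjusted p = 0.0946) and 0.05 ± 0.04 (edgeR adjusted p = 0.286), and the latter was -0.06 with library totals alone. Of that complex Dld alone was called with TMM scaling. Scaled by library totals alone, Ogdh (-0.19, edgeR adjusted p = 1.23e-04) and Cs (-0.19, edgeR adjusted p = 1.81e-05) were called lower as well, and over the 18 alternatives Ogdh was called in 7 and Cs in 10.

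Per gene length, the order of the subunits within each of 5 complexes was the same in both groups. Pdha1 was the most abundant subunit of pyruvate dehydrogenase, at 95.3 ± 2.37 FPKM in ctrl-Treg and 62.2 ± 0.688 FPKM in Sora-Treg libraries, and Pdhx the least, at 5.45 and 3.84 FPKM. Pdhb came second, at 49.2 and 42.8 FPKM. Of isocitrate dehydrogenase 3, Idh3b led at 94.5 and 93.0 FPKM and Idh3a was lowest at 26.3 and 18.3 FPKM. FPKM values use library totals, so they lie lower in Sora-Treg cells than TMM-scaled values do.

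**Figure D3:**
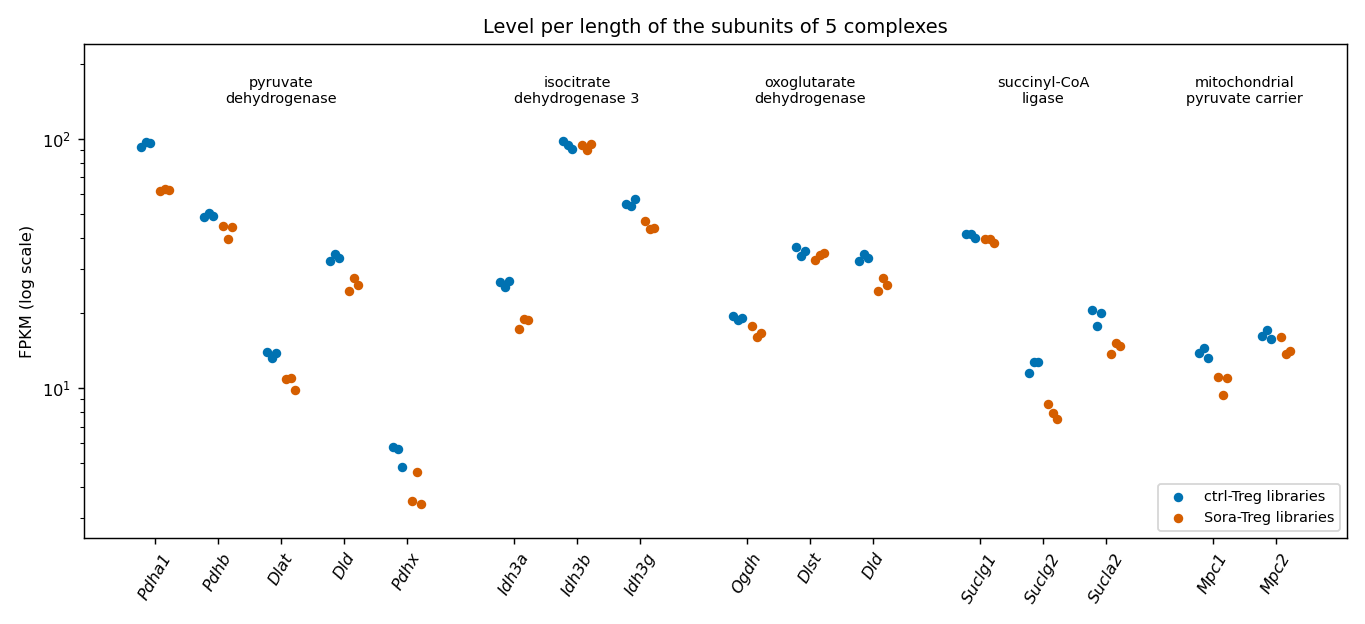
FPKM on a log axis of the subunit genes of 5 complexes, with 1 point per library and 3 libraries per group. Dld is drawn in both dehydrogenase complexes, and Pdha1, Idh3a and Suclg2 show a clear step between groups while Idh3b, Dlst and Suclg1 lie close together.

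Of the 5 malate-aspartate shuttle and glutamate genes, 3 were higher and 1 lower, with a median log2 fold change of 0.16. These shares were 60% and 20%, beside 29.7% and 29.9% of all tested genes. With library totals alone 1 was higher and 1 lower, or 20% each, beside 21.3% and 41.7%. Glud1, the glutamate dehydrogenase that feeds alpha-ketoglutarate into the cycle, measured 229, 234 and 229 CPM in ctrl-Treg and 321, 319.8 and 323 CPM in Sora-Treg libraries. Each group was tight and they were far apart (log2 fold change 0.48 ± 0.03, edgeR adjusted p = 6.96e-13). Per length Glud1 went from the 5th to the 2nd place among the 32 genes, at 76.0 and 97.7 FPKM. Slc25a11, the carrier that exchanges oxoglutarate for malate, was higher at 56.6 ± 2.19 and 63.5 ± 1.26 CPM (log2 fold change 0.17 ± 0.04, edgeR adjusted p = 0.00226). Mdh1, the cytosolic malate dehydrogenase, was higher at 139, 142 and 140.3 CPM in ctrl-Treg against 162, 151 and 157 CPM (log2 fold change 0.16 ± 0.03, edgeR adjusted p = 3.08e-04). With library totals alone neither was called. Slc25a11 shares 189 exon bases with Rnf167 on the opposite strand, which had 1970 to 2707 counts, and Mdh1 shares 52 with Wdpcp, which had 45 to 86.

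Of the aspartate aminotransferases, Got2 was called lower and Got1 did not pass the test. Got2, the mitochondrial enzyme, measured 171, 174 and 173 CPM in ctrl-Treg and 149.5, 138 and 140.3 CPM in Sora-Treg libraries, without overlap (log2 fold change -0.28 ± 0.03, edgeR adjusted p = 2.89e-07). Got1, the cytosolic enzyme, measured 91.1, 92.0 and 96.9 CPM in ctrl-Treg against 106, 92.9 and 101 CPM with overlap (log2 fold change 0.10 ± 0.04, edgeR adjusted p = 0.0561) and was at -0.02 with library totals alone.

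Of the 5 genes of citrate export and NADPH, 4 were higher and 1 lower, with a median log2 fold change of 0.60. These shares were 80% and 20%, beside 29.7% and 29.9% of all tested genes. With library totals alone 3 were higher and 1 lower, or 60% and 20%, beside 21.3% and 41.7%. Me2, the mitochondrial malic enzyme, measured 118, 117 and 124 CPM in ctrl-Treg and 263, 268 and 265 CPM in Sora-Treg libraries. It rose 2.22-fold without overlap (log2 fold change 1.15 ± 0.03, edgeR adjusted p = 1.23e-18). Me1, the cytosolic NADP-dependent malic enzyme, rose 2.19-fold but from a very low level, with 25, 26 and 16 counts in ctrl-Treg and 51, 39 and 42 in Sora-Treg libraries (log2 fold change 1.13 ± 0.34, edgeR adjusted p = 0.00666). It was the least abundant of the 32 transcripts in both groups, and without Sora-Treg library 1 its log2 fold change was 0.96, under the limit for a DEG.

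Acly, which splits exported citrate into acetyl-CoA and oxaloacetate in the cytosol, measured 274, 276 and 261 CPM in ctrl-Treg and 398, 409.9 and 422 CPM in Sora-Treg libraries. It rose 1.52-fold without overlap (log2 fold change 0.60 ± 0.03, edgeR adjusted p = 5.33e-14). Slc25a1, the carrier that brings the citrate out, was lower in every Sora-Treg library, at 75.9, 76.7 and 76.2 CPM in ctrl-Treg against 65.6, 61.6 and 63.7 CPM (log2 fold change -0.26 ± 0.04, edgeR adjusted p = 6.92e-06). Consecutive steps of citrate export were thus called in opposite directions. Idh1, the cytosolic NADP-dependent isocitrate dehydrogenase, measured 10.1, 8.71 and 8.11 CPM in ctrl-Treg and 12.1, 11.8 and 9.41 CPM in Sora-Treg libraries. It was called higher with overlapping groups (log2 fold change 0.30 ± 0.11, edgeR adjusted p = 0.0251) and lost the call under 9 of 18 alternatives, among them those without ctrl-Treg library 2 or 3 or Sora-Treg library 1 or 2 (edgeR adjusted p = 0.0746 to 0.116).

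Split by compartment, 14 of the 27 mitochondrial genes were lower and 5 higher, and 4 of the 5 cytosolic genes (Mdh1, Acly, Idh1 and Me1) were higher, with Got1 not past the test. The mitochondrial shares were 51.9% lower and 18.5% higher, beside 29.9% and 29.7% of all tested genes. With library totals alone 18 of 27 mitochondrial genes were lower and 3 higher (66.7% and 11.1%), beside 41.7% and 21.3% of all tested genes, and 2 of the 5 cytosolic genes were higher. The mitochondrial genes made up 2531 ± 10.8 CPM by library totals in ctrl-Treg and 2427 ± 38.2 in Sora-Treg libraries, and the cytosolic genes 535 ± 6.72 and 653 ± 11.7. The TMM factors were 1.038 to 1.044 in ctrl-Treg and 0.959 to 0.963 in Sora-Treg libraries. TMM scaling therefore lowers the ctrl-Treg sums and raises the Sora-Treg sums. The fall of the mitochondrial sum does not hold on that scale, while the rise of the cytosolic sum does.

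Ratios of related enzymes within a library do not depend on the scaling, and 6 were computed from FPKM. The mitochondrial to cytosolic isocitrate dehydrogenase ratio, Idh2 to Idh1, was 1.69, 2.20 and 2.42 in ctrl-Treg and 1.01, 0.913 and 1.19 in Sora-Treg libraries. The log2 difference was -1.01. By CPM, without gene length, Idh2 stayed above Idh1 in Sora-Treg libraries, at 26.0 ± 1.76 against 11.1 ± 1.47. The size of the ratio thus depends on the gene lengths used for FPKM, and the difference between groups does not. The Mdh2 to Mdh1 ratio was 2.02, 2.12 and 2.12 against 1.70, 1.69 and 1.75 (log2 difference -0.28), and the Got2 to Got1 ratio 1.62, 1.63 and 1.54 against 1.22, 1.28 and 1.20 (log2 difference -0.38). In all of these mitochondrial to cytosolic pairs every Sora-Treg library was below every ctrl-Treg library. The Me2 to Me1 ratio, the remaining such pair, was 79.9, 70.4 and 107 against 67.4, 94.3 and 96.7, with overlap and a log2 difference of 0.01.

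The Pdp1 to Pdk2 ratio was higher in every Sora-Treg library, at 0.474, 0.636 and 0.588 against 0.806, 0.687 and 0.772 (log2 difference 0.42), and the Suclg2 to Sucla2 ratio overlapped (log2 difference -0.21). The Pdp1 to Pdk2 ratio covers a single kinase of pyruvate dehydrogenase. The kinases Pdk1 (47.2 and 56.5 FPKM) and Pdk3 (4.37 and 6.07 FPKM) lay above Pdk2 (3.60 and 2.84 FPKM) and were called higher in Sora-Treg cells. The two-sided exact permutation test gave p = 0.1 for each of the 4 ratios without overlap, p = 0.2 for Suclg2 to Sucla2 and p = 1 for Me2 to Me1, and 0.15, 0.24 and 1 after adjustment over the 6 ratios. With 3 libraries against 3 the smallest p the test can give is 0.1, so none of these differences can pass at 0.05.

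**Figure D4:**
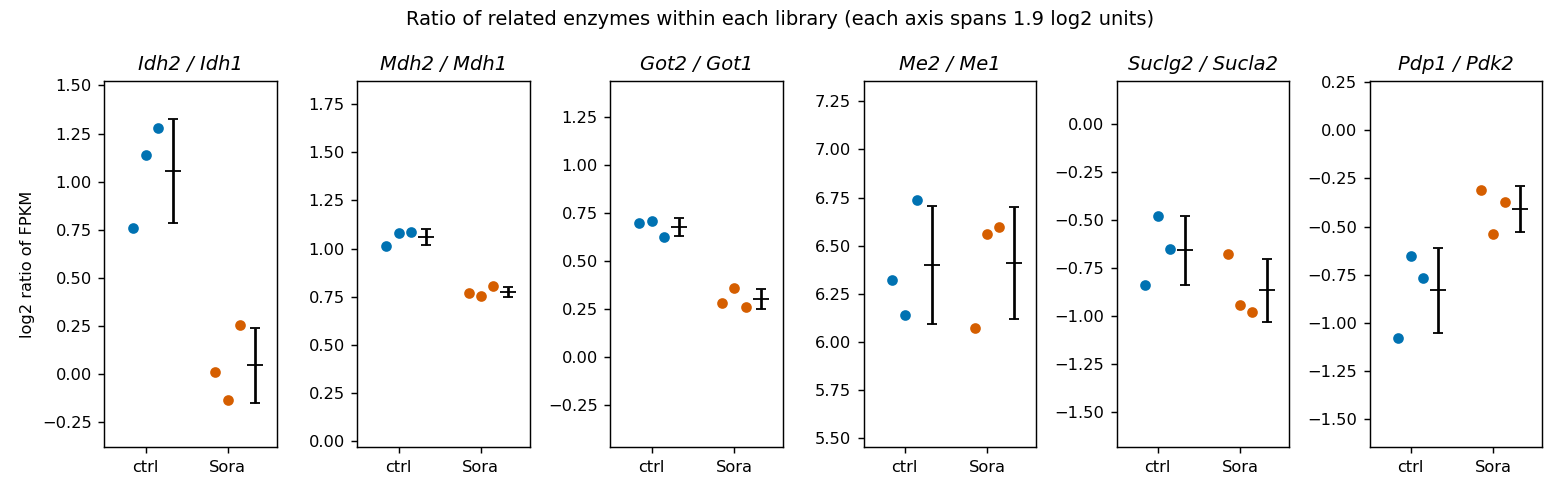
Log2 ratio of FPKM of 6 enzyme pairs in each library, with the mean and SD of 3 libraries beside the points and every axis spanning the same range. The Idh2 to Idh1 ratio lies 1.01 lower in Sora-Treg cells, Mdh2 to Mdh1 and Got2 to Got1 are lower by less, and Me2 to Me1 and Suclg2 to Sucla2 overlap.

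Other genes of the same pathways were taken from a separate list of 34, of which 31 were tested (Pdk4, Me3 and Pck1 were below the filter). Of these, 8 were higher (25.8%), 12 lower (38.7%) and 11 not called, beside 29.7% and 29.9% of all tested genes, with a median log2 fold change of -0.07. Scaled by library totals alone, 7 were higher and 18 lower (22.6% and 58.1%), beside 21.3% and 41.7% of all tested genes. Of the 4 succinate dehydrogenase genes, Sdhb was lower with overlapping groups (log2 fold change -0.11 ± 0.05, edgeR adjusted p = 0.0486). The other 3 did not pass the test, so the lower share was 25% beside 29.9% of all tested genes. With library totals alone 3 of the 4 were lower, or 75% beside 41.7%.

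The kinases of pyruvate dehydrogenase differed from Pdk2. Pdk3 was higher (log2 fold change 0.59 ± 0.05, edgeR adjusted p = 1.39e-10), as was Pdk1 (0.38 ± 0.03, edgeR adjusted p = 7.60e-11), which was named after its value was seen. Per length Pdk1 was at 47.2 and 56.5 FPKM, where Pdk2 was at 3.60 and 2.84 FPKM.

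In glutamine and alanine handling, Gls2, a glutaminase that makes glutamate from glutamine, was higher (log2 fold change 0.75 ± 0.05, edgeR adjusted p = 5.46e-11). Gpt2, the mitochondrial alanine aminotransferase, was lower at 44.4, 43.6 and 44.0 CPM in ctrl-Treg against 21.1, 24.7 and 23.0 CPM (log2 fold change -0.94 ± 0.06, edgeR adjusted p = 4.38e-12). Pck2, which turns mitochondrial oxaloacetate into phosphoenolpyruvate, was lower as well (log2 fold change -0.78 ± 0.04, edgeR adjusted p = 3.08e-14), so the oxaloacetate producer Pcx and this oxaloacetate consumer were called in opposite directions. Slc25a10, the dicarboxylate carrier, was lower with overlapping groups (log2 fold change -0.54 ± 0.15, edgeR adjusted p = 0.00316), and so was Lipt1, a lipoyltransferase that acts on the E2 subunits, without overlap (-0.67 ± 0.20, edgeR adjusted p = 0.00539). With ctrl-Treg libraries 1 and 2 left out neither was called, at -0.27 for Slc25a10 (edgeR adjusted p = 0.339) and -0.72 for Lipt1 (edgeR adjusted p = 0.0506), and limma on log2(FPKM + 1) with no filter did not call Slc25a10 (limma adjusted p = 0.0522). Ogdhl, a relative of Ogdh, was the only DEG of this list, with 86, 56 and 75 counts in ctrl-Treg libraries and 11 counts summed over the Sora-Treg libraries (edgeR adjusted p = 3.19e-08). The ctrl-Treg to Sora-Treg ratio was 19.4, with an exact 95% interval of 10.6 to 39.5 that covers counting error only.

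Upstream of pyruvate, 14 of 15 glycolysis genes were higher, or 93.3% beside 29.7% of all tested genes, with a median log2 fold change of 0.54. Scaled by library totals alone, 13 were higher, or 86.7% beside 21.3%. Ldhb, the lactate dehydrogenase subunit associated with turning lactate into pyruvate, was the 1 lower gene and a DEG (log2 fold change -1.01).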

How the data were processed

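RNA-seq was analysed from 6 libraries, 3 control and 3 sorafenib, grouped by their labels. The count table and the FPKM table were deposited by the authors. The raw counts per gene are not normalized, and FPKM divides them by gene length and library total, with 1 implied length per gene in all libraries (largest relative difference 1.64e-06). The submitters' processing notes name fastp, HISAT2, HTSeq, R 3.2.0, DESeq2 and GRCm39, whereas the methods name Bowtie2, GRCm38 and an expectation maximization step, so no gene coordinates from the tables' build are given. Reads shared with pseudogenes, and the strand setting, are not given in the sources used here, so reads of the 5 members that share exon bases with another listed gene cannot be told apart from its reads.

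Counts were tested in R 4.3.3 with edgeR 4.0.16 (TMM scaling, filterByExpr, quasi-likelihood test, Benjamini-Hochberg adjustment over 13463 genes, threshold 0.05, DEG limit 1 on the log2 scale). The common biological coefficient of variation was 4.29%. Replicates of a group differed by 3.36 to 5.91 times sampling noise (chi-square over degrees of freedom), so none was counted as a repeat. On simulated counts of 13484 genes with 200 changed, edgeR recovered 92.5% of 1.5-fold and 100% of larger changes, with 3.47% false calls. The changed genes were few and about equally up and down, whereas 59.6% of the tested genes were called in these data. The simulation therefore does not give the false-call rate here and does not test the scaling. Alternatives were RLE, upper quartile and library total scaling, 2 other filters, DESeq2 1.42.0, robust dispersion, a replicate block, limma 3.58.1 on log2(FPKM + 1) or log2(FPKM + 0.1) with genes of mean FPKM 1 or more or without that filter, and libraries left out. Ratios were tested by exact permutation. Promoter windows and their coordinates came from RefSeq (GRCm38.p6) and exon overlaps from GENCODE M21.

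The 32 genes and all lists were chosen with earlier results of these data known. Library values are printed for member DEGs, the 5 called members with the highest and the 5 with the lowest log2 fold change, and the members of the ratios. Of other pathway genes, DEGs and the 8 called with the largest absolute change were named, except for a gene that is not reported here.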

Additional observations from a re-analysis of the deposited data

How the results depend on the processing

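Of the 23 called genes, 17 kept their direction and call in all 18 alternatives, except that the FPKM filter of 2 limma settings left Me1 untested. The 6 that did not were Idh1, Idh3b, Mdh1, Slc25a11, Mpc1 and Pdhx, and 7 of the 9 uncalled genes were called somewhere. Replicate numbers gave no sign of pairing, with correlations of same-numbered deviations of -0.04, 0.06 and 0.03. Those of differently numbered libraries were -0.10 to 0.07. With 3 libraries per group this cannot show that same-numbered libraries had separate origins. With the replicate block 10 genes were higher and 15 lower, Cs (edgeR adjusted p = 0.0303) and Got1 (edgeR adjusted p = 0.0324) joining the called genes. The count of higher genes was 5 with library totals alone, 4 with limma on log2(FPKM + 1) and on log2(FPKM + 0.1), and 5 with limma and no filter. The DEGs among them were 1 with limma on log2(FPKM + 1), filtered or not. The median of the 32 genes was -0.19 with library totals, -0.20, -0.20 and -0.19 with limma on log2(FPKM + 1), log2(FPKM + 0.1) and no filter, -0.12 with upper quartile scaling and -0.093 when a count of 1 in any library sufficed. Leaving out each library in turn gave a median between -0.115 and -0.039, 7 to 10 higher genes, 14 to 16 lower genes and 2 to 3 DEGs, the 2 being without Sora-Treg library 1. Of the uncalled genes, Pdk2 passed without ctrl-Treg library 2 (edgeR adjusted p = 0.0343), Cs without that library (0.0472) or Sora-Treg library 1 (0.00979), Ogdh without Sora-Treg library 1 (0.0117), Pdp1 without Sora-Treg library 2 (0.0237), and Got1 without that library (0.00226) or ctrl-Treg library 3 (0.0362). With ctrl-Treg libraries 1 and 2 left out together, a single ctrl-Treg library remained, and the log2 fold change of Mpc2 turned to 0.0018. Over all genes, limma called 2310, 2305 and 2577 higher with log2(FPKM + 1), log2(FPKM + 0.1) and no filter, with 259, 340 and 274 DEGs higher and 182, 343 and 185 lower. With library totals alone and with these limma settings in that order, Idh3b turned to -0.0231, -0.0222, -0.0224 and -0.0222, Dlst to -0.0642, -0.0621, -0.0637 and -0.0621, Suclg1 to -0.0683, -0.0656, -0.0670 and -0.0656, and Got1 to -0.0158, -0.0175, -0.0178 and -0.0175. Both of these scales use library totals, and the cause of the other shifts was not tested. Single libraries left out moved the log2 difference of the Me2 to Me1 ratio between -0.12 and 0.18, and those of the other ratios kept their sign. DESeq2 called 8 genes higher and 14 lower. FPKM fold changes with a pseudocount understate the change of low genes such as Me1, whose counts limit what these libraries show of it.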
